A study of Bos indicus with 11 samples.

Results

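The genes described here make, cut or bind hyaluronan: the synthases HAS1, HAS2 and HAS3, the hyaluronan depolymerase KIAA1199 (also called CEMIP), its relative TMEM2 (also called CEMIP2), the hyaluronidases HYAL1 and HYAL2, and the receptor CD44. They were taken by gene symbol, 8 genes of the 24616 listed, and were chosen by this role with their normalized counts in pregnant and non-pregnant cows already known, so that their differences between the groups are described without a test. All 8 symbols were found, on 9 rows, because HYAL1 stood on 2 rows (ENSBTAG00000000483 and ENSBTAG00000047200). With a mean of at least 5 normalized counts over the cows, 7 rows of 6 genes entered the fit across all genes, and HAS1 and HAS2 fell below that level. A normalized count is the number of reads on a gene divided by a size factor of the cow.

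RNA-Seq was performed on endometrial biopsies of healthy, multiparous Nelore cows (Bos indicus), which were inseminated at a detected estrus after synchronization with a prostaglandin analogue. All biopsies were taken on day 6 after AI, from the uterine horn opposite to the ovary that carried the corpus luteum, and the cows sequenced had been chosen for similar plasma progesterone on that day. The 6 pregnant (P) and 5 non-pregnant (NP) cows were told apart only by a diagnosis on day 30, and no genotype or treatment distinguishes the groups in the labels. The day 30 outcome says nothing of when or why a pregnancy was absent, and each cow gave 1 biopsy of mixed tissue.

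Hyaluronan is a very long, unsulfated sugar chain of the extracellular matrix. Synthases in the plasma membrane extrude it, depolymerases and hyaluronidases cut it at the cell surface, in endosomes and in lysosomes, and CD44 ties it to the cell and to the actin skeleton. In the uterus it is known as a water-binding component of the stroma, whose amount changes with the estrous cycle.

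The libraries held 9290949 to 13569085 reads on genes per cow. Epithelial, stromal, endothelial and smooth muscle markers had reads in every cow, so that the biopsies were mixtures, and in such samples fewer cells of a type and less RNA per cell cannot be told apart. Cows P617 and P1541 stood apart from the others. The summed normalized counts of 10 smooth muscle markers were 854822 in P617 and 637724 in P1541, against 108183 to 260890 in the other P cows and 52841 to 355327 in the NP cows. ACTG2 and ACTA2 of this list were matched to the same row, which enters the sum and the smooth muscle score once for each symbol. Its value was 215006 in P617 and 165234 in P1541. P617 also had the lowest sum of 10 epithelial markers, 1984 against 8404 to 21602 in the other cows, and most genes known from liver had their highest value in this cow. The sample label gives P617 as pregnant and is followed here, although the study lists this cow as non-pregnant in another place, so the values that rest on these cows are given with and without them.

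KIAA1199 separated the groups. This protein binds hyaluronan and is needed for its cleavage in fibroblasts. KIAA1199 (ENSBTAG00000007431) had a lowest, median and highest value of 56.5, 117 and 190 normalized counts in the P cows, against 289, 329, 334, 420 and 482 in the 5 NP cows. The groups did not overlap, and P617 and P1541 were the lowest of all. This holds with P617 as pregnant. Counted as non-pregnant, as the study lists it in another place, P617 with 56.5 would make the groups overlap. The P mean was 126 ± 51.0 (SD, n = 6) and the NP mean 371 ± 78.4 (SD, n = 5), a ratio of 2.95. On the log2(normalized count + 1) scale, on which all fold changes here are given, NP exceeded P by 1.64 (SE 0.29).

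**Figure D1:**
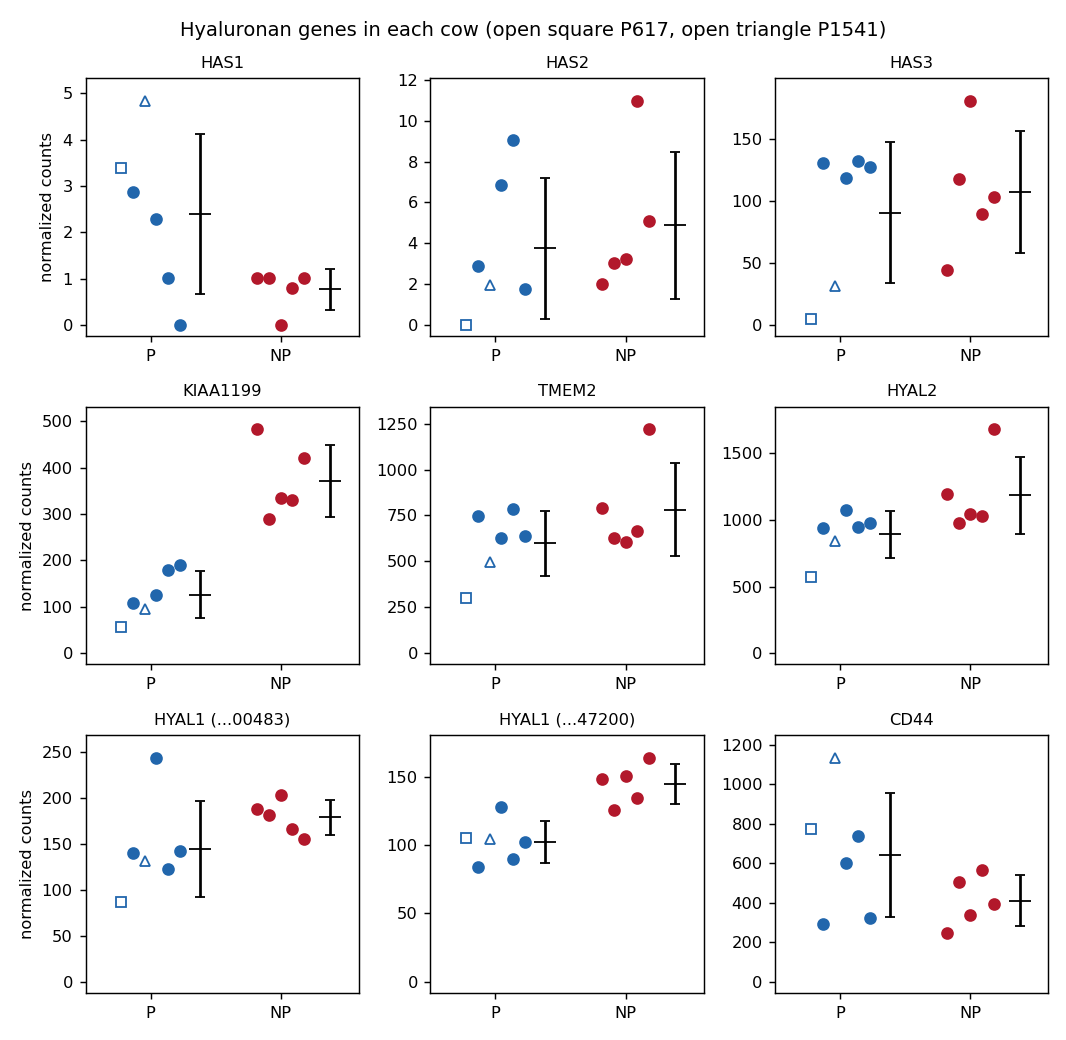
Normalized counts (vertical axis, from 0, a separate scale for each panel) of the 9 member rows in the 6 P cows (blue) and the 5 NP cows (red), 1 point per cow, with the group mean and SD as a black bar. Open squares are P617 and open triangles P1541. The groups are apart only for KIAA1199, with 190 as the highest P value and 289 as the lowest NP value.

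Among the 7 member rows in the fit, KIAA1199 was the 1 row without overlap between the groups, where 0.855% of the 15081 genes tested had all NP cows above all P cows and 1.09% had no overlap in either direction. Since the members were chosen with this contrast known, nothing is read from that count. In size its difference exceeded that of 98.6% of the genes tested. Leaving out each cow in turn gave 1.43 to 1.78, and without both P617 and P1541 the value was 1.31. Cow P617 carried the lowest KIAA1199 value of the 11 cows.

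Markers of other tissue moved with KIAA1199 in part. The stroma score, the mean log2(normalized count + 1) of 10 markers such as DCN and COL1A1, was 13.00 to 13.26 in the NP cows and 12.01 to 12.69 in 4 of the P cows. In P617 and P1541 it was 13.19 and 13.28, beside the lowest KIAA1199 values. Of the 10 stromal markers, 2 separated the groups as KIAA1199 did, also against P617 and P1541: DCN had at most 42337 normalized counts in P and at least 44069 in NP cows, and PDGFRB at most 1797 in P and at least 2427 in NP cows. If P617 were counted as non-pregnant, its 36893 for DCN and 1678 for PDGFRB would make the groups overlap for both. KIAA1199 and the stroma score had r = 0.22 and rho = 0.09 over all cows. Without P617 and P1541 r was 0.79 over 9 cows, in which both separate the groups, so that this r also holds the group difference. The smooth muscle score overlapped between the groups. It went with KIAA1199 over all cows with r = -0.70 and rho = -0.74, and r was -0.39 without P617 and P1541. The blood endothelium score went with KIAA1199 at r = 0.71 and rho = 0.67, and r was 0.44 without NP2810 and P617. For the epithelium score r was 0.53 and rho 0.15, and r was -0.59 without P617 and P1541. As KIAA1199 separates the groups, these r values also hold the group difference, and no p is given for them. Within the 6 P cows r was -0.52 for smooth muscle (exact permutation p = 0.286, adjusted p = 0.381 over 28 pairs). For blood endothelium it was 0.46 there (exact permutation p = 0.342, adjusted p = 0.416). Stroma gave -0.77 there (exact permutation p = 0.0694, adjusted p = 0.174) and epithelium 0.87 (exact permutation p = 0.0264, adjusted p = 0.149), so none passed. With the smooth muscle score as a covariate the KIAA1199 log2 fold change was 1.30, and with the stroma score it was 2.07. The part of tissue makeup in the difference cannot be told apart from the group for markers that separate the groups, and was not tested further.

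Ratios of reads within a library, where the size factor cancels, restate the KIAA1199 difference and are no further support for it. The ratio of KIAA1199 to TMEM2 reads was 0.146 to 0.297 in the P cows and 0.344 to 0.611 in the NP cows. The ratio of KIAA1199 to HYAL2 reads was 0.0994 to 0.195 in the P cows and 0.250 to 0.406 in the NP cows. The ratio of TMEM2 to HYAL2 reads was 0.527 to 0.830 in the P cows and 0.580 to 0.727 in the NP cows, so that the NP range lay inside the P range.

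Of the synthases, only HAS3 had enough reads for the fit. The 3 enzymes catalyse the same reaction and are known to differ in the length of the chain they release and in their regulation. HAS1 (ENSBTAG00000017672) had 0 to 5 reads per P cow and 0 or 1 read per NP cow, in normalized counts 2.40 ± 1.72 (SD, n = 6) and 0.766 ± 0.440 (SD, n = 5). HAS2 (ENSBTAG00000019892), the synthase best known from fibroblasts and the cumulus, had 0 to 9 reads per P cow and 2 to 14 reads per NP cow, or 3.75 ± 3.46 (SD, n = 6) and 4.87 ± 3.59 (SD, n = 5) normalized counts. For HAS1, 4 of the 6 P cows lay above the highest NP cow, and for HAS2 1 NP cow lay above the highest P cow. Both genes rest on a few reads per cow and their groups overlapped, so no fold is given and no difference is read.

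HAS3 (ENSBTAG00000007992) had a lowest, median and highest value of 4.52, 123 and 132 normalized counts in the P cows, and 44.5, 89.4, 103, 118 and 181 in the NP cows. The 2 lowest of the 11 values belonged to P617 with 4.52 and P1541 with 31.0, and the other 4 P cows lay close together at 119 to 132, inside the NP range. The log2 fold change was 0.71 with an SE of 0.80 over all cows. It was 0.02 without P617 and -0.38 without both cows. With the smooth muscle score as a covariate it was -0.14 and with the stroma score 2.07, so HAS3 had no direction that held across these settings.

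TMEM2 and HYAL2 had smaller differences than KIAA1199, and the groups overlapped. TMEM2 is a membrane protein with a depolymerase domain like that of KIAA1199. TMEM2 (ENSBTAG00000005090) had 299, 632 and 783 normalized counts as the lowest, median and highest P values, and 605, 628, 666, 790 and 1219 in the NP cows. Most cows of both groups lay between 605 and 790, with P617 low at 299, P1541 at 498 and NP2810 high at 1219. The log2 fold change was 0.40 (SE 0.26), 0.21 without P617 and 0.12 without P617 and P1541. With the smooth muscle score as a covariate it was 0.03, and with the stroma score 0.66.

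HYAL2 is anchored to the cell surface and cuts long chains into shorter ones. HYAL2 (ENSBTAG00000000484) had 568, 940 and 1077 normalized counts as the lowest, median and highest P values, and 973, 1028, 1043, 1189 and 1678 in the NP cows. P617 was again lowest and NP2810 highest, and 2 of the 5 NP cows exceeded the highest P cow. For HYAL2 NP exceeded P by 0.41 on the log2 scale (SE 0.18), with 0.28 without P617, 0.24 without both cows, 0.14 with the smooth muscle score as a covariate and 0.61 with the stroma score.

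HYAL1 is the lysosomal hyaluronidase, and on its second row 4 of the 5 NP cows lay above the highest P cow. On the row ENSBTAG00000047200 the lowest, median and highest P values were 84.3, 103 and 128 normalized counts, and the NP cows had 126, 135, 149, 151 and 164. Only the NP638 value of 126 lay below the highest P cow, P1631, and P617 with 105 was near the P median. The log2 fold change was 0.50 (SE 0.16), between 0.45 and 0.57 with each cow left out and 0.53 without P617 and P1541, so this row did not rest on those cows.

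On the row ENSBTAG00000000483, HYAL1 had 87.0, 135 and 243 normalized counts as the lowest, median and highest P values, and 155, 165, 181, 188 and 203 in the NP cows. The 5 other P cows lay below all NP cows and P1631 lay above them. On this row the log2 fold change was 0.37 (SE 0.23), 0.19 without P617 and P1541 and 0.69 with the stroma score as a covariate. Summed over both rows, HYAL1 came to 247 ± 63.7 (SD, n = 6) among P and 323 ± 22.1 (SD, n = 5) among NP animals. The first row exceeded the second in 9 of 11 cows. How reads were divided between rows of 1 symbol is not given in the sources used here. In the RefSeq table of another Bos indicus assembly (NIAB-ARS_B.indTharparkar), HYAL1 overlaps its neighbours HYAL3 and NAA80, so the HYAL1 values are uncertain.

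CD44 was the only tested member with a lower mean log2 value in NP cows, and the groups overlapped. CD44 (ENSBTAG00000011578) had 292, 670 and 1134 normalized counts as the lowest, median and highest P values, and 248, 337, 396, 505 and 568 in the NP cows. P1541 was highest with 1134 and P617 next with 772, and 2 P cows, P904 and P2396, lay within the NP range at 292 and 320. For CD44 the log2 fold change was -0.55 (SE 0.36), -0.46 without P617 and -0.20 without P617 and P1541. With the smooth muscle score as a covariate it was -0.0056, and with the stroma score -0.93. CD44 is expressed by leukocytes, stroma and muscle as well as epithelium, and its source within the biopsy was not tested.

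**Figure D2:**
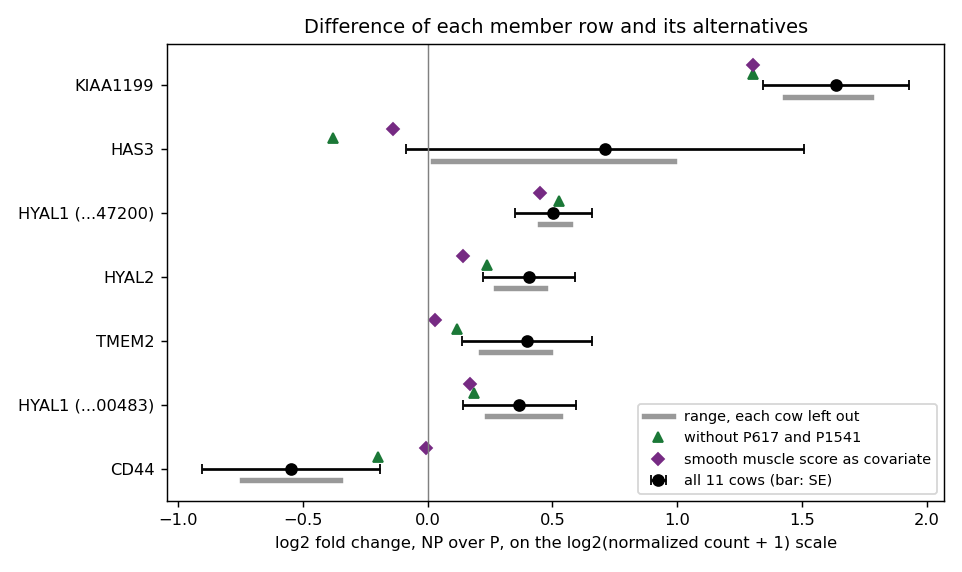
Log2 fold change, NP over P (horizontal axis), of the 7 member rows in the fit: black points and bars are the value and SE over 11 cows, grey bars the range with each cow left out, green triangles the value without P617 and P1541, and purple diamonds the value with the smooth muscle score as a covariate. KIAA1199 lies between 1.30 and 1.78 throughout, HAS3 crosses 0, and CD44 moves from -0.55 to -0.0056 with the covariate.

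Over the 7 rows, 6 were higher on average in NP cows, and the median log2 fold change was 0.41, beside 0.0018 over all genes tested. These counts describe rows chosen with the contrast known and are no evidence on hyaluronan genes in general.

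The members also varied among cows within the groups. Correlations of log2(normalized count + 1) were computed for 21 pairs of rows over the cows, with two-sided permutation tests of 100000 resamples and Benjamini-Hochberg adjustment. HYAL2 and TMEM2 gave r = 0.93 (permutation p = 0.0011, adjusted p = 0.0115) but rho = 0.55 (permutation p = 0.0878, adjusted p = 0.184). Without NP2810 and P617, the cows farthest from the median, r was 0.49, so the relation rested on them. Without P617 and P1541 it was 0.82, with NP2810 still present. The other pair that passed was KIAA1199 with HYAL2.

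Pairs with KIAA1199 were read within the 6 P cows, because this gene separates the groups. There KIAA1199 and HYAL2 gave r = 0.83 (exact permutation p = 0.0444, adjusted p = 0.158) and KIAA1199 and TMEM2 r = 0.85 (exact permutation p = 0.0319, adjusted p = 0.158), which did not pass. Within the P cows only HAS3 and TMEM2 passed, with r = 0.97 and rho = 1.00 (exact permutation p = 0.0014, the smallest that 6 cows allow, adjusted p = 0.0292 for r). Over the 9 cows without P617 and P1541, of which 5 were NP cows, the same pair had r = -0.30.

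Some members followed the makeup of the biopsy, in relations chosen after the data had been seen. Of 28 pairs of a member row and a marker score, 4 had an adjusted p under 0.05 over the 11 cows. The smooth muscle score went with HYAL2 (r = -0.81, rho = -0.84, permutation adjusted p = 0.0036), with TMEM2 (r = -0.76, rho = -0.65, permutation adjusted p = 0.0308) and with CD44 (r = 0.79, rho = 0.73, permutation adjusted p = 0.0381). Leaving out P617 and P1541, the cows farthest from the median of the smooth muscle score, r was -0.69, -0.53 and 0.61, and none of the 28 pairs passed. HAS3 followed the epithelium score with r = 0.90 (rho = 0.62, permutation adjusted p = 0.0381), but r was 0.13 without P617 and P1541. Without P1631 and P617, the cows farthest from the median of the epithelium score, r of HAS3 was 0.61. HYAL2 within the P cows followed the epithelium score with r = 0.996 (rho = 1.00, exact permutation adjusted p = 0.0389), and r was -0.06 over the 9 cows without P617 and P1541.

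**Figure D3:**
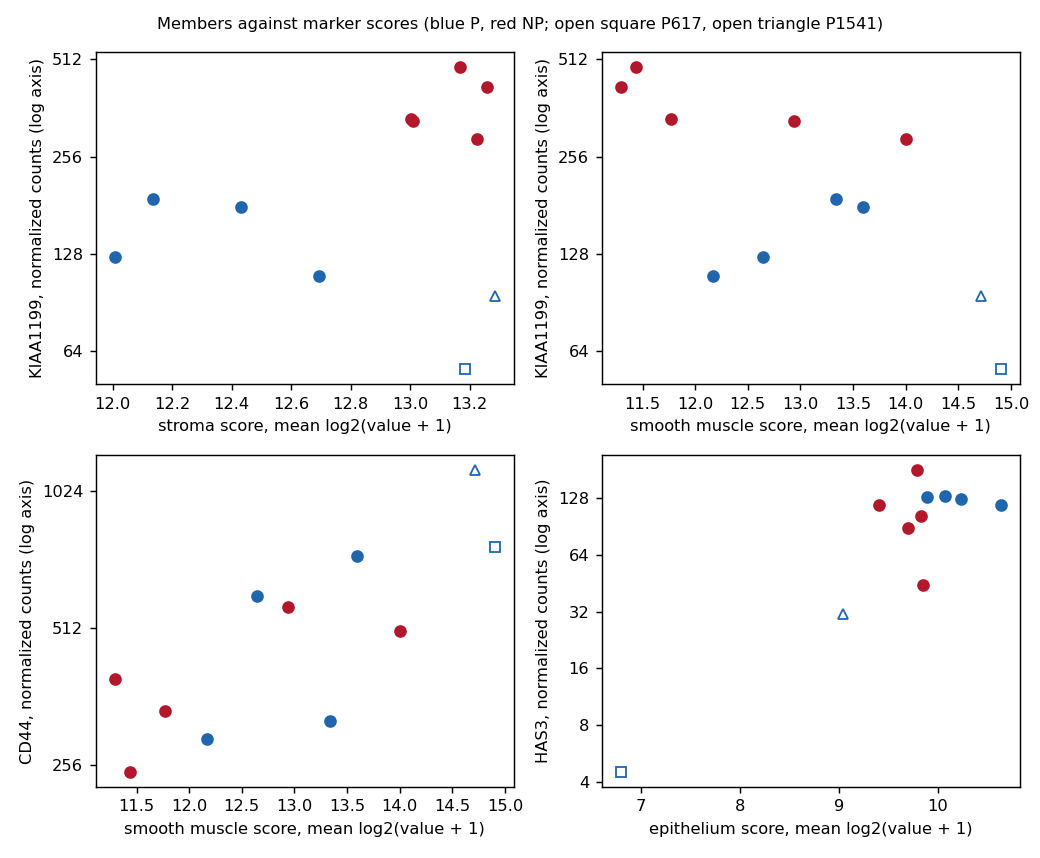
KIAA1199, CD44 and HAS3 in normalized counts (vertical log axis) against marker scores, the mean log2(value + 1) of each list (horizontal axis), 1 point per cow: P blue, NP red, P617 an open square and P1541 an open triangle. P617 and P1541 combine stroma scores of 13.19 and 13.28 with the lowest KIAA1199 values, and HAS3 is low in these cows, where the epithelium score is lowest.

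Over all 11 cows, the marker scores themselves did not pass a test between the groups. Each was compared by an exact permutation test, two-sided, over the 462 ways to split the cows, with p adjusted over 7 lists. It gave NP minus P differences of 0.82 for blood endothelium (exact permutation p = 0.0195, adjusted p = 0.106), 0.67 for leukocytes (p = 0.0303, adjusted p = 0.106), 0.51 for stroma (p = 0.0801, adjusted p = 0.174) and -1.27 for smooth muscle (p = 0.0996, adjusted p = 0.174). The smallest p this design allows is 0.00216. Epithelium differed by 0.27, lymphatic endothelium by 0.17 and proliferation by 0.46, with adjusted exact permutation p-values of 0.859, 0.594 and 0.662. Without P617 and P1541 the stroma score separated the groups, with 12.01 to 12.69 in P and 13.00 to 13.26 in NP cows. The epithelium score then did so the other way, with 9.89 to 10.63 in P and 9.41 to 9.84 in NP cows. FLT4 and MKI67 were not matched to a row, LYVE1 of the lymphatic list is also a hyaluronan receptor in the pathway list, and no marker with a row was at 0 in every cow.

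The rest of the hyaluronan pathway was then looked at in a list of 43 other genes, of which 41 were found and 33 were tested. HYAL3 and HYAL4 were not matched to a row. With limma 0 of the 33 passed an adjusted p of 0.1, as did 0% of all genes, and 2 of 33 had an unadjusted p under 0.05, beside 7.84% of all genes. These 2 were higher in NP, beside 5.49% of all genes in that direction, and 0 were higher in P, beside 2.35%. On the recovered reads edgeR and limma-voom likewise called 0, as they did 0% of all genes. They had 4 and 2 at an unadjusted p under 0.05, beside 7.63% and 7.78% of all genes. DESeq2 called 1, beside 1.33% of all genes. The list's median log2 fold change was 0.14, with 20 genes higher in NP and 13 higher in P. Of the 33, 0 separated the groups, beside 1.09% of all genes.

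The 2 genes were LAYN and PTX3. LAYN (layilin, a membrane receptor for hyaluronan) had 48.0, 54.3 and 112 normalized counts as the lowest, median and highest P values and 104, 110, 128, 138 and 139 in the NP cows. Only P904 with 112 reached the NP range. The log2 fold change of LAYN was 0.92 (SE 0.25, adjusted p = 0.323 in limma), and DESeq2 gave an adjusted p of 0.0833. PTX3 (pentraxin 3, which cross-links hyaluronan with its attached heavy chains) had 12.6, 63.5 and 160 normalized counts in the P cows and 85.5, 147, 276, 277 and 302 in the NP cows. The PTX3 groups overlapped, and the log2 fold change was 1.89 (SE 0.67, adjusted p = 0.487 in limma).

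By role, the 6 tested receptors all had higher mean log2 values in NP cows, from 0.06 for HMMR to 0.92 for LAYN, beside 50.2% of all genes. However, TLR2 and TLR4, immune receptors that bind hyaluronan fragments, were at -0.08 and -0.20 without P617. Without P617 and P1541 HMMR was at -0.18, TLR2 at -0.26 and TLR4 at -0.40. TLR4 had the highest mean of the receptors, 546 ± 251 (SD, n = 6) for P and 535 ± 114 (SD, n = 5) for NP. Among the 7 genes that supply the sugar nucleotides, 5 were higher in P and 2 in NP cows, and UAP1, which makes UDP-N-acetylglucosamine, had 2286 ± 390 (SD, n = 6) and 2111 ± 163 (SD, n = 5) normalized counts. GFPT2, which starts the hexosamine pathway, was the one that depended most on P617. It had 163, 255 and 596 normalized counts as the lowest, median and highest P values and 329, 340, 346, 387 and 401 in the NP cows, with 596 in P617. GFPT2 was singled out after its values were seen. Its log2 fold change was 0.43 over all cows (SE 0.27) and 0.66 without P617. Without P617 and P1541 it was 0.70 (adjusted p = 0.162 in limma).

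The lysosomal hexosaminidase subunit HEXA, which trims hyaluronan fragments, was level, with 640 ± 77.5 (SD, n = 6) for P and 630 ± 15.6 (SD, n = 5) for NP, and the 4 tested breakdown genes lay between -0.02 and 0.62 on the log2 scale. Of the proteins that link CD44 to actin, ezrin (EZR) had 9318 ± 4153 (SD, n = 6) and 10500 ± 1280 (SD, n = 5) normalized counts, lowest in P617 with 2846, and the 4 genes of this role lay between -0.22 and 0.34. C1QBP, a multifunctional protein also described as hyaluronan-binding, had 2409 ± 812 (SD, n = 6) and 2606 ± 437 (SD, n = 5).

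**Figure D4:**
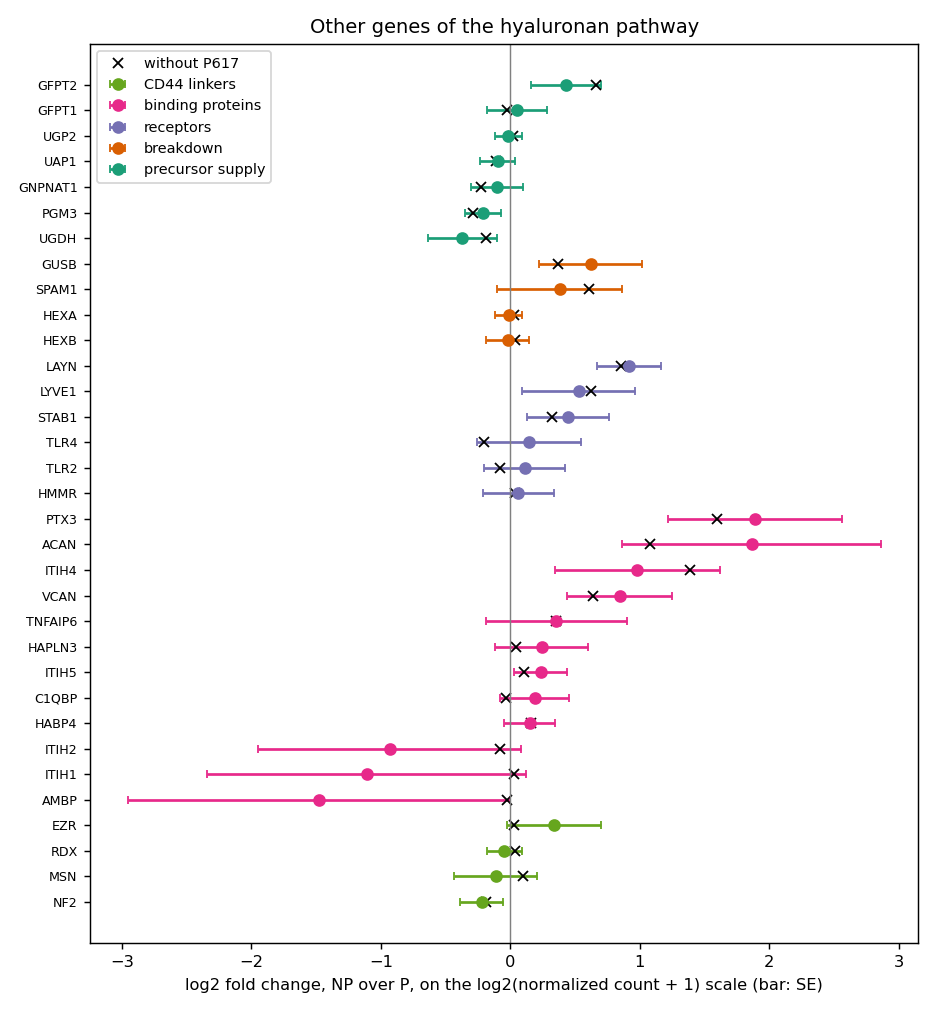
Log2 fold change, NP over P (horizontal axis), with SE bars, of the 33 tested pathway genes outside the members, coloured by role, and the value without P617 as black crosses. Most genes lie near 0, PTX3 and LAYN are higher in NP by 1.89 and 0.92, and the negative values of AMBP, ITIH1 and ITIH2 move to near 0 without P617.

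Transcripts of bikunin and of 3 heavy chains came mainly from 1 cow. The heavy chains are serum proteins that become attached to hyaluronan. AMBP, the precursor of bikunin, had 477 normalized counts in P617 and at most 0.968 in any other cow. The heavy chain genes ITIH1, ITIH2 and ITIH3 had 262, 108 and 50.8 in P617, and at most 4.08, 7.99 and 0.968 in the other cows. Without P617 the log2 fold changes of AMBP, ITIH1 and ITIH2 were -0.03, 0.03 and -0.08, against -1.48, -1.11 and -0.93 with it. In the same library 11 of 13 genes known from liver, a list added after the data had been seen, had their highest value, and their summed level was 19553 normalized counts against 712 to 2040 in the other cows. ALB, serum albumin, had 3323 normalized counts in P617. How these transcripts came into the library was not tested.

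**Figure D5:**
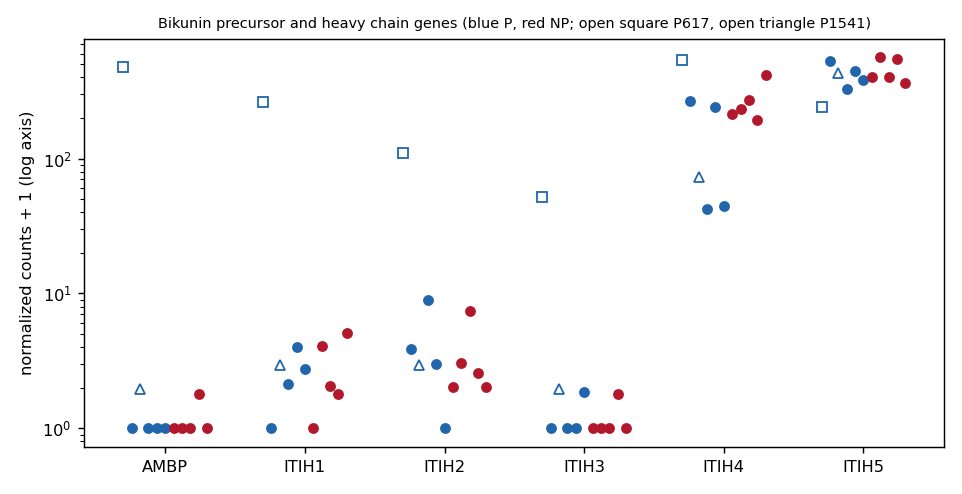
Normalized counts plus 1 (vertical log axis) of AMBP and 5 inter-alpha-trypsin inhibitor heavy chain genes in each cow: P blue, NP red, P617 an open square and P1541 an open triangle. For AMBP, ITIH1, ITIH2 and ITIH3 P617 lies far above the other 10 cows, with 477, 262, 108 and 50.8 normalized counts, whereas ITIH5 is lowest in P617.

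Genes whose pattern was most like that of a member were sought among 12569 genes with a symbol and a mean of at least 20, by r over the 11 cows after the mean of each group was subtracted, as a description with no p. For KIAA1199 they were MEP1B (r = 0.96, 0.91 without P617 and P1541), LOC100847927, FUBP1, CBX2 and ADAMTS19, the last with r = 0.94. For TMEM2 they were TPST2 (r = 0.97, 0.93 without the 2 cows), ZHX3, MDK, MTHFS and HERPUD1. For CD44 they were KXD1 (r = 0.95, 0.94 without the 2 cows), C7, MMP16, HSBP1 and IGSF1. Among the members, the r of TMEM2 with HYAL2 was 0.93, above that of 99.9% of the genes, and 0.84 without the 2 cows. NP2810 was still present there. Without NP2810 and P617 this pair had r = 0.49, with group means not subtracted. All these points share the library and its size factor.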

How the data were processed

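RNA-Seq was analysed in endometrial biopsies of 11 cows, with 1 replicate per animal. By their methods and the submitters' processing notes, the authors cleaned read pairs with Seqyclean, aligned them locally with Bowtie2 2.1.0 to a masked UMD3.1 genome, counted genes with HTSeq-count 0.5.4p2 and scaled the counts with DESeq2 1.12.1. The deposited values are these normalized counts, a signal and not raw reads. The annotation and the use of strand are not given in the sources used here. Divided by the worth of a single read in each cow, 100% of the values came out whole (within 0.01), so reads were recovered. At 1 read per 0.784 to 1.14 normalized counts, genes near a mean of 5 rest on few reads.

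Groups came from the sample labels. The members and all gene lists were chosen with earlier results of these data known. Genes with a mean of at least 5 were fitted with limma 3.58.1 (R 4.3.3, eBayes with a trend) on log2(value + 1), with the Benjamini-Hochberg adjustment over all 15081 at 0.1. DESeq2 1.42.0, edgeR 4.0.16 and limma-voom on recovered reads, TMM, a pseudocount of 5, a mean of at least 20, no filter, covariates and left-out cows were alternatives. The tests were tested on simulated data. Named were the members, pathway genes with an unadjusted limma p under 0.05 and the highest mean of each role, the 5 genes most like KIAA1199, CD44 and TMEM2 (HAS2, under the level needed, was left out), and markers at 0. Other genes were named after their values were seen. Coordinates are not given, because the reference is of another assembly. Transcript lengths were not used here, so the highest mean of each role and the order of the HYAL1 rows are in normalized counts, not per kilobase.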

Additional observations from a re-analysis of the deposited data

Results flagged for a closer look

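In 54 groups of a gene and P or NP cows, 9 had a highest or lowest cow far from the others by Dixon's test. Chance flags about 1 in 20 for continuous values, but some flags here rest on 1 read. AMBP and the ITIH genes were also named after their values were seen, so the 9 flags are not set against that rate. Of the 9 flags, 4 were P617, with AMBP at 477, ITIH1 at 262, ITIH2 at 108 and ITIH3 at 50.8 normalized counts. Among the members, P1631 stood out with 243 on the HYAL1 row ENSBTAG00000000483, where the next P cow had 142, and NP856 stood out with 0 for HAS1, where the next NP cow had 0.784, a gap of 1 read from which nothing is read. NP856 had 6.45 for ITIH2, and NP2541 had 0.784, a single read, for both ITIH3 and AMBP, with 0 in the other NP cows.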

How the results depend on the processing

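Limma called 0 genes between the groups, with 1182 at an unadjusted p under 0.05, and edgeR and limma-voom called 0 with 1151 and 1173. DESeq2 called 201, the fit without P617 and P1541 called 17 and the fit with the stroma score as a covariate called 3796, while leaving out each cow gave 0 to 171, with 171 without P904. Of the 33 pathway genes tested 0 were called, against 1 by DESeq2, beside 1.33% of all genes. With the stroma score as a covariate 5 were called, beside 25.2% of all genes. Leaving out each cow gave 0 to 1 (LAYN without P904, beside 1.13% of all genes). Of 21 member pairs 2 passed over all cows, 0 without the 2 farthest cows and 1 within the P cows, and of 28 member and marker pairs 4 passed, 0 without the 2 farthest cows and 0 without P617 and P1541. Of 7 marker scores 0 passed, but 2 did without P617 and P1541 (stroma and epithelium) and 0 to 2 with each cow left out (2 without P904). Of 147 log2 fold changes of members under the alternatives 145 kept their direction, with HAS3 at -0.38 without P617 and P1541 and -0.14 with the smooth muscle score as exceptions. Of 147 for named pathway genes 132 did. Without P617 and P1541 and with the smooth muscle score as a covariate, TLR4 turned to -0.40 and -0.30, C1QBP to -0.14 and -0.18, EZR to -0.15 and -0.064 and HEXA to 0.041 and 0.045. TLR4 was also at -0.021 in edgeR and -0.030 in DESeq2, and HEXA at 0.0035 in limma-voom. With each cow left out TLR4 ranged from -0.20 to 0.29, C1QBP from -0.036 to 0.28, HEXA from -0.078 to 0.030, the epithelium score from -0.26 to 0.51 and the proliferation score from -0.028 to 0.83, each turning without P617 and HEXA also without P1753. Without P617 and P1541 the epithelium score was -0.49 (exact permutation adjusted p = 0.0278) and the proliferation score -0.29. The other 80 of 84 score differences kept their direction. The cause was not tested. The order of member levels per kilobase was not run, because transcript lengths were not used here. No paired analysis was possible because the cow numbers in the labels are not shared between the groups. HAS1 and HAS2 rest on a few reads per cow, and no difference is read from them.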
